A study of Mus musculus with 21 samples.

Results

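The 37 genes of the mouse mitochondrial genome were described in bulk RNA-seq of sorted Paneth cells. They were chosen by symbol alone, as every gene of the deposited count table whose name begins with mt-, and they made up 37 of the 55414 genes listed. Of these, 13 encode proteins (mt-Nd1 to mt-Nd6 and mt-Nd4l of complex I, mt-Cytb of complex III, mt-Co1 to mt-Co3 of complex IV, mt-Atp6 and mt-Atp8 of the ATP synthase), 2 encode the ribosomal RNAs of the mitochondrial ribosome (mt-Rnr1 and mt-Rnr2), and 22 encode tRNAs.

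Paneth cells are secretory cells at the base of the small intestinal crypts, known for α-defensins, lysozyme and zinc-rich granules. All mice were on Milli-Q water or on water with zinc sulfate for 7 weeks, at a labelled dose of 200 mM. The 6 groups were specific-pathogen-free (SPF) mice on Milli-Q (n = 3) or zinc (n = 3), SPF mice that also received broad-spectrum antibiotics during the last 3 weeks on Milli-Q (n = 4) or zinc (n = 4), and germ-free mice on Milli-Q (n = 3) or zinc (n = 4). The study describes its Paneth cells as coming from C57BL/6J mice, and no genotype differed between groups. No age of the mice was found in the sources used here. Paneth cells were sorted by FACS from small intestine, and stranded libraries of polyadenylated RNA were sequenced.

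The mitochondrial genome is a small circle transcribed from both strands into long precursors. Processing enzymes cut these at the tRNAs that lie between most genes, which releases the mRNAs and rRNAs, and short poly(A) tails are then added to most of the mRNAs. Nearly all mRNAs and both rRNAs come from the heavy-strand transcript, and mt-Nd6 is the only protein-coding gene of the light-strand transcript. The products serve respiration, and every other protein of transcription, RNA processing and mitochondrial translation is imported from the cytosol.

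Libraries held 9888174 to 16896714 counts (median 12936001). On Milli-Q water, the genes with any count numbered 16876 to 17814 in SPF, 17468 to 18072 in antibiotics and 15098 to 15536 in germ-free libraries. On zinc water they numbered 16445 to 16707, 15870 to 16558 and 13747 to 16180 in the same order, with the lowest in germ-free zinc replicate 1. The part of these numbers in the results below was not tested. The 9 Paneth cell markers, among them Lyz1, Mmp7 and Defa24, took 28.9 to 51.8% of the counts of a library, and the 28 Defa genes alone took 29.6% ± 4.90 (SD, n = 3) in SPF Milli-Q and 43.8% ± 0.844 (SD, n = 3) in germ-free Milli-Q. Stromal markers were at or near 0 in all libraries, enterocyte markers took 0.0355 to 0.188%, and immune markers took 0.0311 to 0.0392% in antibiotics Milli-Q against at most 0.0232% elsewhere. The immune markers did not move together. Of the 3 that could be tested against SPF Milli-Q, Cd74 had a log2 fold change of 3.35, Lyz2 of 0.32 and Ptprc of -0.34. A single library stood apart by one gene, since Xist took 0.0506% of the counts of SPF zinc replicate 1 and at most 0.00028% elsewhere. The study states that its datasets hold animals of both sexes, and the part of sex in this difference was not tested. Without that library, the mean mitochondrial share of SPF zinc was 2.37% in place of 2.29%, and the 3 comparisons between groups that use SPF zinc had 0 members called with and without it. In bulk libraries such as these, fewer cells of a type and less RNA per cell cannot be told apart. The replicates are labelled biological, with no further description in the labels. The study describes its Paneth cell samples, over all its datasets, as coming from individual mice. The p-values measure the spread between these libraries.

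A long stretch of the mitochondrial genome also lies in the nuclear genome, and the protein-coding members with few or no counts lie in it. In GRCm39, chr1:24650616-24655265 on the minus strand (4650 bases) matched positions 6394 to 11042 of the mitochondrial genome (4649 bases, 28.5% of its 16299). The match ran without a break for 3067 bases, and over its whole length it held 1 substitution, T9461C, where positions count from 1 at the start of the mitochondrial genome and the mitochondrial base comes first. The substitution lay in mt-Nd3, and the other difference was a run of A in mt-Tr that was 1 base longer on chromosome 1. The following windows show both differences, in capitals, first in the mitochondrial genome (chrM:9447-9475 and chrM:9812-9837, plus strand) and then in the chromosome 1 copy (chr1:24652184-24652212 and chr1:24651821-24651847, minus strand).
mt-Nd3 in the mitochondrial genome: cagaagagagtaatTaacctgtacactgt
mt-Nd3 copy on chromosome 1: cagaagagagtaatCaacctgtacactgt
mt-Tr in the mitochondrial genome: aattagtttAAAAAAAAttaatgatt
mt-Tr copy on chromosome 1: aattagtttAAAAAAAAAttaatgatt

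The copy began inside mt-Co1 and ended inside mt-Nd4. The next windows show these ends (chrM:6380-6407 with chr1:24655252-24655279, and chrM:11029-11056 with chr1:24650602-24650629), with the shared bases in capitals and the bases beyond the copy in lower case.
mt-Co1 in the mitochondrial genome: tggtctaaccggaaTTGTTTTATCCAAC
mt-Co1 end of the copy on chromosome 1: tggattggcaggatTTGTTTTATCCAAC
mt-Nd4 in the mitochondrial genome: ACTCCTCAGTTAGCcacatagcacttgt
mt-Nd4 end of the copy on chromosome 1: ACTCCTCAGTTAGCtagagaaagtagcc

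The copy held 11 members whole, namely the protein-coding genes mt-Co2, mt-Atp8, mt-Atp6, mt-Co3, mt-Nd3 and mt-Nd4l and the tRNA genes mt-Ts1, mt-Td, mt-Tk, mt-Tg and mt-Tr. It also held 479 bases (31.0%) of mt-Co1 and 876 bases (63.6%) of mt-Nd4. Of all stretches of 75 bases within mt-Co2, mt-Atp8, mt-Atp6, mt-Co3 and mt-Nd4l, 100% occurred in the nuclear genome as well, and in mt-Nd3 98.9% did. The share was 61.5% in mt-Nd4, 39.8% in mt-Co1, 5.71% in mt-Nd2, 2.85% in mt-Rnr2 and 1.66% in mt-Nd5, and it was 0% in mt-Nd1, mt-Nd6, mt-Cytb and mt-Rnr1. How reads with several positions were handled, and how long the reads were, could not be read from the sources used here.

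The protein-coding members held whole by the copy were those with almost no counts. All 21 libraries listed mt-Co2, mt-Atp8, mt-Co3 and mt-Nd4l at 0, mt-Atp6 had 1 count in all libraries together, and mt-Nd3 had 2. The 7 protein-coding members outside the copy, or with a part outside it, had counts in every library. For a gene at 0 the depth allowed a share of up to 1.78e-05 to 3.03e-05% of a library's counts (3 counts, counting error only), but this limit covers reads that were assigned to the gene. The annotated copies on chromosome 1 were low as well. Gm28661 (copy of mt-Co2) held 22 counts in all libraries, Gm28437 (mt-Co3) 10, Atp6-ps (mt-Atp6) 9, and Gm29216 (end of mt-Co1) 130. The part of the nuclear copy in the low values of mt-Co2, mt-Co3, mt-Atp6, mt-Atp8, mt-Nd3 and mt-Nd4l was not tested, no level is read from them here, and every sum over the protein-coding members below is a sum over the other 7.

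**Figure D1:**
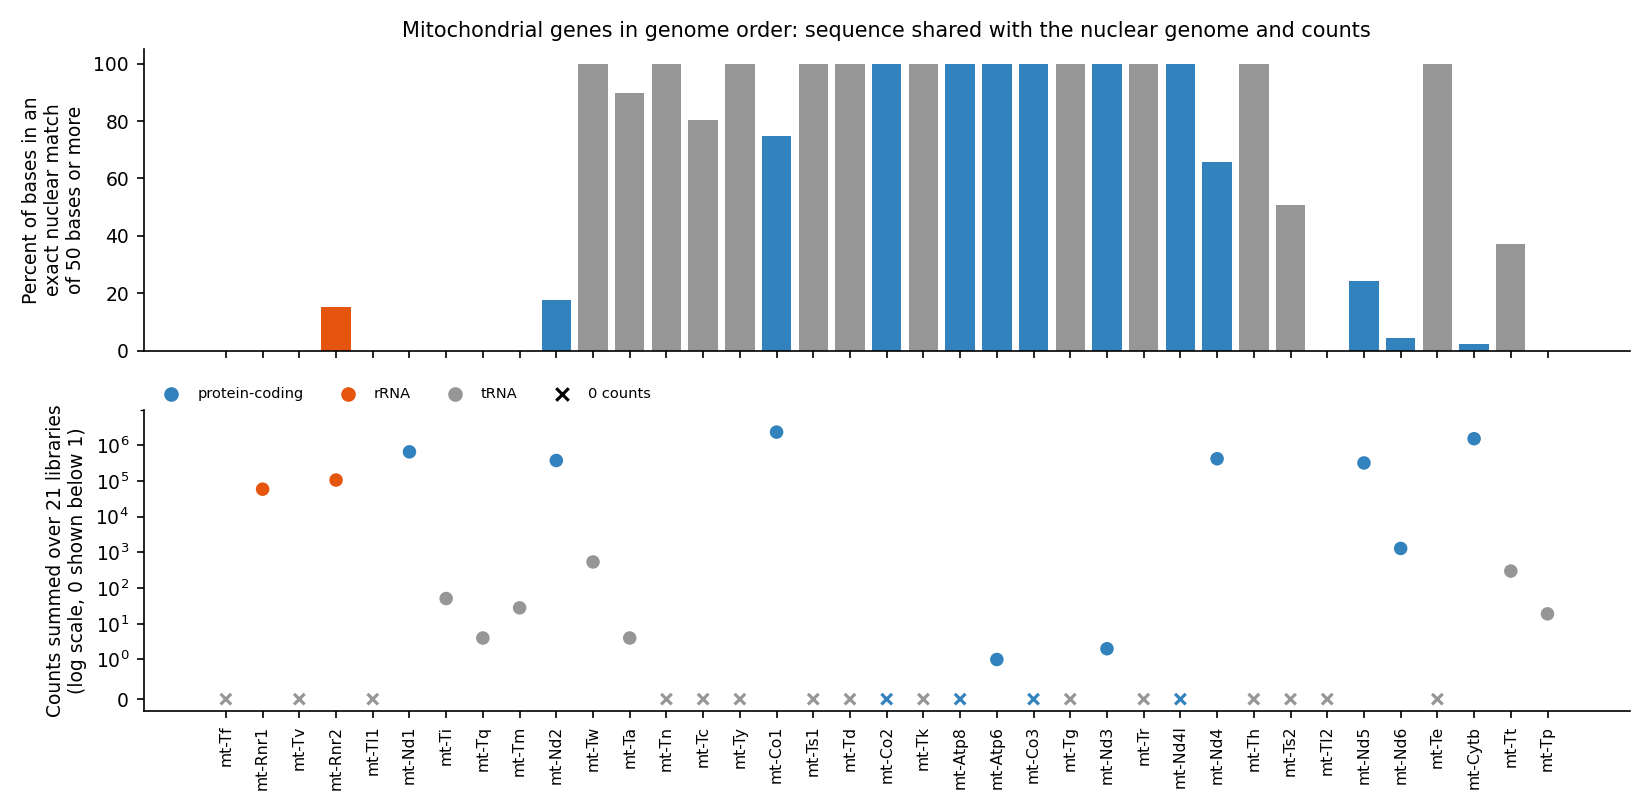
The 37 mitochondrial genes in genome order, with the percent of the bases of each gene in an exact nuclear match of 50 bases or more (upper bars) and its counts summed over 21 libraries on a log scale (lower points, crosses for 0 counts). The 6 protein-coding genes held whole by the chromosome 1 copy have 0 to 2 counts, while the other protein-coding genes have 1292 to 2346991.

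Of 5820901 counts on the 37 genes, 97.1% were on protein-coding genes, 2.84% (165498) on the 2 rRNA genes, and 0.0163% (947) on the tRNA genes. Of the 22 tRNA genes, 15 had no count in any library, and most of the rest came from mt-Tw (541 counts) and mt-Tt (300 counts), the tRNAs for tryptophan and threonine. mt-Tw overlaps the end of mt-Nd2 by 2 bases, and mt-Tt starts at the base after the end of mt-Cytb, so reads across these ends can be assigned to either gene. A filter on low counts left 11 members for tests, the 2 rRNA genes, 7 protein-coding genes (mt-Nd1, mt-Nd2, mt-Co1, mt-Nd4, mt-Nd5, mt-Nd6, mt-Cytb) and mt-Tw and mt-Tt, and 26 members were not tested.

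Levels per length were compared in SPF Milli-Q as CPM per kilobase of gene, where CPM are counts scaled to the same total in each library. mt-Co1 (chrM:5328-6872), the catalytic core subunit of complex IV, was highest at 5469 ± 554 CPM per kilobase (SD, n = 3). mt-Cytb (chrM:14145-15288), the cytochrome b of complex III, followed at 4335 ± 174. The complex I genes came next, with mt-Nd1 (chrM:2751-3707) at 2318 ± 259, mt-Nd2 (chrM:3914-4951) at 1286 ± 59.8, mt-Nd4 (chrM:10167-11544) at 999 ± 84.6 and mt-Nd5 (chrM:11742-13565) at 679 ± 140. The rRNAs were below these 6 mRNAs in the poly(A)-selected libraries, with mt-Rnr2 (16S, chrM:1094-2675) at 199 ± 45.4 and mt-Rnr1 (12S, chrM:70-1024) at 155 ± 47.7. mt-Tw reached 38.9 ± 10.3, mt-Tt 18.03 ± 9.19 and the light-strand mRNA mt-Nd6 (chrM:13552-14070, minus strand) 9.64 ± 3.38. The part of poly(A) selection in these levels, that of mt-Nd6 among them, was not tested. Neighbours in this order were farther apart than the sum of their SDs, except for mt-Rnr2 and mt-Rnr1 and for mt-Tt and mt-Nd6. The place of mt-Nd4 depended on the length used. Per 1000 stretches of 75 bases that do not occur in the nuclear genome, mt-Nd4 was at 2742 CPM, above mt-Nd1 (2512) and mt-Nd2 (1468), and mt-Co1 was at 9547.

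The share of a library's counts on the 37 genes was lowest in germ-free mice on Milli-Q. It was 1.89, 2.16 and 1.97% in the SPF Milli-Q libraries (2.00% ± 0.136, SD, n = 3) and 1.21, 0.599 and 0.716% in the germ-free Milli-Q libraries (0.840% ± 0.322, SD, n = 3), a ratio of 2.39 between the means with no overlap. In antibiotics Milli-Q the libraries held 2.67, 1.84, 2.01 and 2.16% (2.17% ± 0.358, SD, n = 4), around the SPF values. Markers of some other cell types were also lower in germ-free Milli-Q than in SPF Milli-Q as a percent of counts. The 7 stem and cycling cell markers took 0.146 to 0.207% against 0.416 to 0.594%, with 3 called lower and 1 higher in edgeR. The 7 enteroendocrine markers took 0.00369 to 0.005% against 0.0134 to 0.0264% (4 called lower, 1 higher), and the 6 tuft cell markers took 0.00651 to 0.00773% against 0.018 to 0.0271% (3 of 5 tested called lower). Goblet cell markers overlapped, at 1.21 to 1.36% against 1.19 to 1.76% (3 called higher, 2 lower). Enterocyte markers overlapped too, at 0.0355 to 0.0772% against 0.0632 to 0.113% (1 called lower). The 9 Paneth cell markers went the other way, at 48.5 to 51.2% against 33.1 to 42.1%, with no overlap (8 called higher, 1 lower). By library totals the median over all genes was also lower in this comparison, as given further below. The part of these markers and of this shift in the mitochondrial share was not tested. Counting error was small beside this spread, since the exact 95% interval of a library's share reached at most 0.0104 percentage points from its value.

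Each zinc group had a higher mean share than its Milli-Q group, and the ranges overlapped in all 3 contexts. SPF zinc held 2.14, 2.61 and 2.13% (2.29% ± 0.275, SD, n = 3). Antibiotics zinc held 1.88, 3.68, 3.75 and 3.44% (3.19% ± 0.882, SD, n = 4), so 3 of 4 libraries were above every antibiotics Milli-Q library and replicate 1 lay within the antibiotics Milli-Q range. Germ-free zinc held 1.32, 1.80, 2.78 and 1.19% (1.77% ± 0.721, SD, n = 4), with 3 of 4 libraries above every germ-free Milli-Q library.

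Because the Defa genes take a share of the counts that differs between groups, the share was also taken over the counts outside these 28 genes. It was then 2.85% ± 0.103 in SPF Milli-Q, 3.53% ± 0.363 in SPF zinc (both SD, n = 3), 3.05% ± 0.354 in antibiotics Milli-Q, 4.401% ± 1.21 in antibiotics zinc (both SD, n = 4), 1.49% ± 0.577 in germ-free Milli-Q (SD, n = 3) and 3.00% ± 1.15 in germ-free zinc (SD, n = 4). On this scale the 3 SPF zinc libraries (3.28 to 3.95%) lay above the 3 SPF Milli-Q libraries (2.75 to 2.96%), and the germ-free Milli-Q libraries (1.08 to 2.15%) stayed below them. Enterocyte markers moved with zinc in SPF mice as well, at 0.125 to 0.188% of all counts in SPF zinc against 0.0632 to 0.113% in SPF Milli-Q, with no overlap. Of the 10 markers, 1 was called higher in edgeR and 9 had an unadjusted p under 0.05, with a median log2 fold change of 2.13, and their part in the mitochondrial share was not tested. All sums over the members are given as descriptions, without a test.

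**Figure D2:**
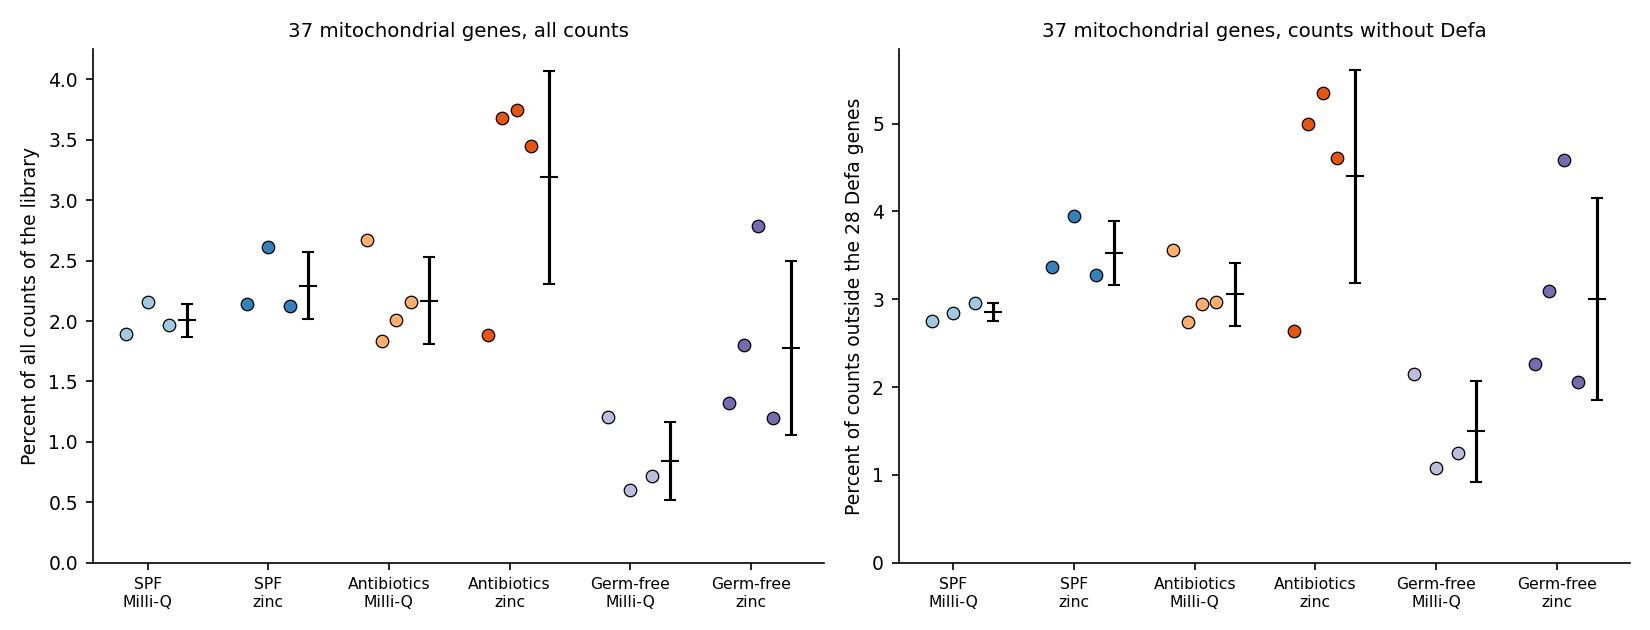
Percent of counts on the 37 mitochondrial genes in each library (points), with the group mean and SD beside them (black), over all counts (left) and over counts outside the 28 Defa genes (right). Germ-free Milli-Q libraries lie at 0.599 to 1.21% of all counts, and antibiotics zinc replicate 1 lies at 1.88% while the other 3 libraries of its group lie at 3.44 to 3.75%.

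Zinc after antibiotics gave the highest number of called members. In edgeR's quasi-likelihood test on all 13070 genes that passed the filter, with Benjamini-Hochberg adjustment over them and a threshold of 0.05, 7 of 11 tested members rose and 0 fell, against 21.7% of all genes called in either direction and 10.2% called higher. The median log2 fold change of the 11 was 0.74, against 0.01 for all genes. The 12S rRNA mt-Rnr1 rose most. Its normalised counts were 142, 108, 82.7 and 94.8 CPM in antibiotics Milli-Q and 106, 201, 314 and 448 CPM in antibiotics zinc, so replicate 1 of the zinc group lay within the Milli-Q range. Its log2 fold change was 1.32 ± 0.38 (SE, edgeR adjusted p 0.0182). The 16S rRNA mt-Rnr2 was at 301, 194, 204 and 197 CPM against 246, 387, 623 and 743 CPM, and its log2 fold change was 1.16 ± 0.33 (SE), adjusted p 0.0184 in edgeR. mt-Nd5, a proton-pumping subunit of complex I, was at 876, 705, 945 and 982 CPM against 1164, 1718, 1838 and 1743 CPM, with no overlap. It rose by 0.88 ± 0.24 (log2, SE, edgeR adjusted p 0.0132).

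mt-Co1 rose after antibiotics by 0.74 ± 0.25 on the log2 scale (SE, edgeR adjusted p 0.0397), from 5462 to 7140 CPM over the Milli-Q libraries to 7098 to 13172 CPM over the zinc libraries. The other 3 members called higher were mt-Nd1, mt-Nd2 and mt-Cytb, with log2 fold changes of 0.59 to 0.83. mt-Nd6 had a log2 fold change of 0.66 ± 0.31 (SE) and mt-Nd4 of 0.41 ± 0.19 (SE), with adjusted p of 0.121 and 0.117 in edgeR. The count depended on single libraries. Without antibiotics Milli-Q replicate 2 none of the 11 members was called, without antibiotics Milli-Q replicate 3 or antibiotics zinc replicate 4 only mt-Nd5 was, without antibiotics zinc replicate 3 the count was 3, and without antibiotics zinc replicate 1 it was 8. When libraries were scaled by their totals alone, the count was 2, the 2 rRNA genes. The nuclear RNAs Malat1 and Neat1 fell in the same comparison, by 1.04 ± 0.28 and 2.02 ± 0.53 (log2, SE, edgeR adjusted p 0.0133 and 0.0109). Of the 7 stem and cycling cell markers, Top2a and Cdk1 rose and Ascl2 fell. The part of these changes in the calls was not tested.

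Zinc in germ-free mice gave 5 members that rose and 0 that fell, against 11.4% of all genes called in either direction and 5.89% called higher. All 5 were mRNAs of the heavy strand. mt-Co1 was at 7210, 3162 and 3761 CPM in germ-free Milli-Q and at 10008, 10615, 14523 and 5268 CPM in germ-free zinc. Replicate 1 of the Milli-Q group was the highest of its 3 and replicate 4 of the zinc group the lowest of its 4, and the groups overlapped through them. Its log2 fold change was 1.10 ± 0.28 (SE, edgeR adjusted p 0.0189). mt-Nd2 was at 1081, 541 and 611 CPM against 1554, 1558, 2203 and 811 CPM, with a log2 fold change of 1.04 ± 0.26 (SE, edgeR adjusted p 0.0189). mt-Nd1 had a log2 fold change of 1.00 ± 0.27 (SE, edgeR adjusted p 0.0226), and mt-Nd5 and mt-Cytb were called at 0.94 and 0.87. In the same comparison 2 of 10 enterocyte markers were called higher and 0 lower, with a median log2 fold change of 0.76. Of the 9 Paneth cell markers, 2 were called lower and 0 higher, with a median of -0.13. No marker of the other cell types listed was called, and the part of these markers in the mitochondrial calls was not tested.

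The rRNAs had fold changes of a like size in germ-free mice but did not pass the threshold. mt-Rnr2 was at 445, 346 and 251 CPM against 1054, 449, 959 and 259 CPM (log2 fold change 0.97 ± 0.37, SE, edgeR adjusted p 0.0825), and mt-Rnr1 had a log2 fold change of 1.21 ± 0.42 (SE, edgeR adjusted p 0.0617). mt-Nd6 had a log2 fold change of -0.32 ± 0.37 (SE, edgeR adjusted p 0.605). Without germ-free Milli-Q replicate 2 or 3, or without germ-free zinc replicate 3, 0 members were called. Without germ-free zinc replicate 1 or 2 the count was 3. A fit of only these 2 groups also called 0.

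Zinc in SPF mice called 0 of 11 members, against 0.138% of all genes, and 0 had an unadjusted p under 0.05. DESeq2 and limma-voom also called 0, and edgeR without a filter on low counts called mt-Rnr1. The 11 log2 fold changes ran from 0.07 to 0.74 with a median of 0.40, all above 0. mt-Co1 was at 6998, 6846 and 6357 CPM in SPF Milli-Q and 8562, 8747 and 7643 CPM in SPF zinc, with no overlap and a log2 fold change of 0.30 ± 0.29 (SE, edgeR adjusted p 0.997). mt-Rnr2 was at 262, 288 and 201 CPM against 406, 413 and 331 CPM (log2 fold change 0.62 ± 0.38, SE, edgeR adjusted p 0.997), and mt-Nd6 had a log2 fold change of 0.18 ± 0.36 (SE).

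The zinc effects were not shown to differ between contexts. Tested as interactions in edgeR, the difference between antibiotics and SPF was called for 0 members (0% of all genes called), that between germ-free and SPF for 0 members (0% of all genes), and that between germ-free and antibiotics for 0 members (0.207% of all genes). In all 3 interactions, 0 members had an unadjusted p under 0.05, and DESeq2 and limma-voom called 0. The difference of the zinc effect on mt-Co1 was 0.44 ± 0.38 (log2, SE) for antibiotics minus SPF and 0.80 ± 0.40 (log2, SE) for germ-free minus SPF. For mt-Nd6 it was -0.98 ± 0.48 (log2, SE) for germ-free minus antibiotics.

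**Figure D3:**
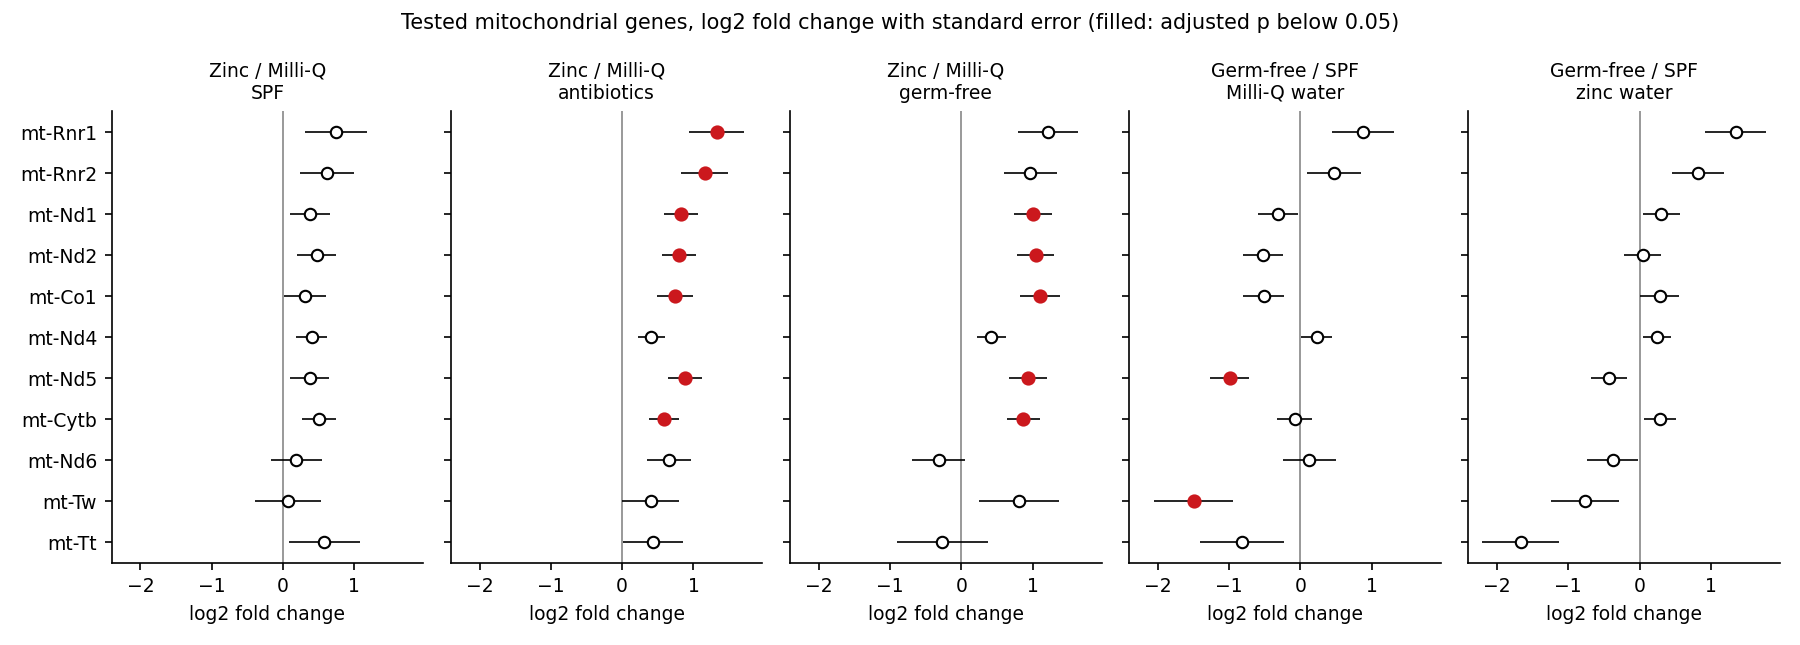
Log2 fold changes of the 11 tested members in 5 comparisons, with standard errors as bars and filled points where the edgeR adjusted p was below 0.05. Filled points to the right of 0 stand at 7 members for zinc after antibiotics and 5 for zinc in germ-free mice, and filled points to the left at mt-Nd5 and mt-Tw for germ-free against SPF on Milli-Q water.

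The comparison of germ-free with SPF mice on Milli-Q water called 2 members lower and 0 higher, against 24.2% of all genes called in either direction and 11.6% called lower. On this scale, set by TMM factors, the 11 members had a median log2 fold change of -0.31. mt-Nd5 was at 1104, 1093 and 769 CPM in SPF Milli-Q and 713, 357 and 421 CPM in germ-free Milli-Q. It fell by 0.99 ± 0.28 (log2, SE, edgeR adjusted p 0.0123), with no overlap. The tRNA gene mt-Tw had 45, 31 and 36 counts in SPF Milli-Q against 5, 10 and 2 counts in germ-free Milli-Q, not scaled. With TMM factors it was at 3.07, 1.58 and 1.74 CPM against 0.648, 1.48 and 0.214 CPM, so the ranges nearly touched. mt-Tw fell by 1.499 ± 0.55 (log2, SE, edgeR adjusted p 0.0495). Of its bases, 100% also lay in exact matches to the nuclear genome, and the part of these matches in its counts was not tested. mt-Co1 had a log2 fold change of -0.52 ± 0.29 (SE, edgeR adjusted p 0.204), mt-Rnr2 of 0.47 ± 0.38 (adjusted p 0.385) and mt-Nd6 of 0.13 ± 0.37 (adjusted p 0.837). When libraries were scaled by their totals alone, 8 members were called lower, and the median over all genes moved to -0.99 (log2). Without germ-free Milli-Q replicate 3 none was called, and without replicate 2 of that group or SPF Milli-Q replicate 1 or 3 the count was 1. Without germ-free Milli-Q replicate 1 it was 3.

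On zinc water, germ-free against SPF mice gave 0 calls among the members, against 5.85% of all genes, with 3 members at an unadjusted p under 0.05. DESeq2 called mt-Rnr1 higher and mt-Tt lower, and limma-voom called 0. In edgeR mt-Rnr1 had a log2 fold change of 1.35 ± 0.42 (SE, adjusted p 0.0578) and mt-Tt of -1.67 ± 0.54 (SE, adjusted p 0.0651), members named here after their values were seen. mt-Co1 (0.28 ± 0.27), mt-Rnr2 (0.83 ± 0.36) and mt-Nd6 (-0.38 ± 0.36) had log2 fold changes, with SE, that did not pass the threshold. Without germ-free zinc replicate 4, mt-Rnr1, mt-Rnr2 and mt-Tt passed.

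No member was called for antibiotics. Antibiotics against SPF mice called 0 members on Milli-Q water (0.199% of all genes called) and 0 on zinc water (8.97% of all genes called). In both, 0 members had an unadjusted p under 0.05, and DESeq2 and limma-voom called 0. The median log2 fold change of the 11 was -0.05 on Milli-Q and 0.33 on zinc water. mt-Co1 had log2 fold changes of -0.05 ± 0.27 and 0.38 ± 0.27 (SE), mt-Rnr2 of -0.16 ± 0.36 and 0.38 ± 0.36 (SE), and mt-Nd6 of -0.05 ± 0.33 and 0.43 ± 0.34 (SE). The comparisons with SPF, and those with Milli-Q, share control libraries.

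Relative to the mRNAs, the rRNA genes took more counts in germ-free Milli-Q than in SPF Milli-Q. As a percent of all counts the rRNA genes were not higher, at 0.0279 to 0.0444% in germ-free Milli-Q against 0.0375 to 0.0596% in SPF Milli-Q. The protein-coding genes were lower on that scale, at 0.562 to 1.16% against 1.85 to 2.10%, with no overlap. Counts on mt-Rnr1 and mt-Rnr2 were 2.26, 2.84 and 1.95% of the counts on the mitochondrial protein-coding genes in SPF Milli-Q (2.35% ± 0.456, SD, n = 3), and 3.83, 6.50 and 4.05% in germ-free Milli-Q (4.79% ± 1.48, SD, n = 3), with no overlap. The ratio was 2.82% ± 0.325 in SPF zinc (SD, n = 3), 2.07% ± 0.344 in antibiotics Milli-Q, 2.87% ± 1.01 in antibiotics zinc and 4.77% ± 2.37 in germ-free zinc (each SD, n = 4). In germ-free zinc the libraries were at 8.10, 3.07, 4.81 and 3.08%, so replicate 1 was the highest of all 21 libraries, and replicates 2 and 4 were within the SPF zinc range of 2.56 to 3.19%.

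The cytosolic 18S rRNA gene Rn18s-rs5, whose RNA lacks a poly(A) tail, took a higher share of all counts in germ-free Milli-Q, unlike the 2 mitochondrial rRNA genes. It took 2.02% ± 0.537 of all counts in SPF Milli-Q (SD, n = 3), 5.36% ± 1.15 in germ-free Milli-Q (SD, n = 3) and 6.09% ± 2.87 in germ-free zinc (SD, n = 4), and it was called higher in germ-free against SPF on Milli-Q water (log2 fold change 2.37 ± 0.47, SE, edgeR adjusted p 0.001005). The 2 libraries with the highest 18S share, germ-free zinc replicate 1 (10.03%) and germ-free Milli-Q replicate 2 (6.57%), also had the 2 highest mitochondrial rRNA ratios. In antibiotics zinc, replicate 4 had the highest 18S share of its group (6.09%) and the highest ratio (4.25%), while the lowest 18S share was that of replicate 2 (1.96%) and the lowest ratio that of replicate 1 (2.07%). In antibiotics Milli-Q the order differed, since replicate 1 had the lowest 18S share (1.63%) with the highest ratio (2.53%), and replicate 4 the highest 18S share (2.03%) with a ratio of 1.83%. After antibiotics, where mt-Rnr1 and mt-Rnr2 rose with zinc, 18S had a log2 fold change of 1.07 ± 0.39 (SE, edgeR adjusted p 0.0506). The part of the rRNA content of the libraries in the values of mt-Rnr1 and mt-Rnr2 was not tested.

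**Figure D4:**
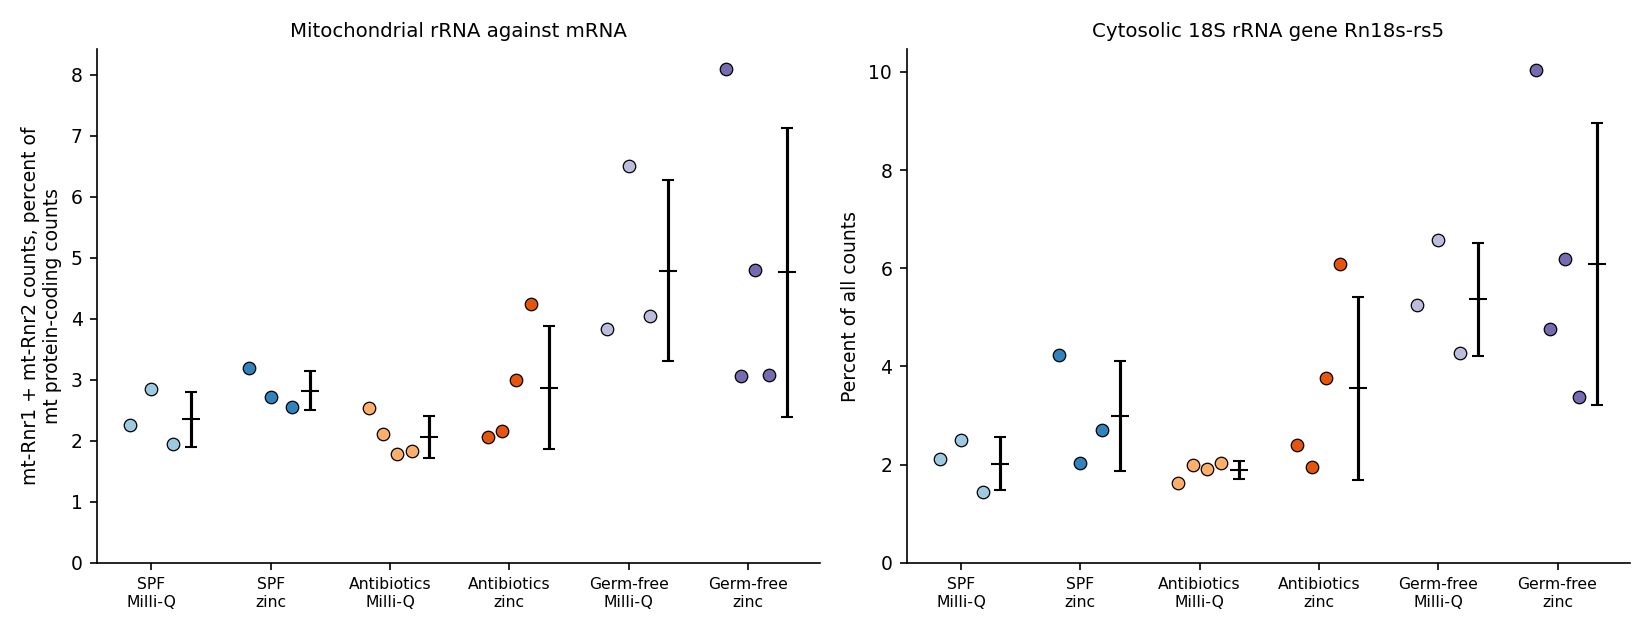
Counts on mt-Rnr1 and mt-Rnr2 as a percent of counts on the mitochondrial protein-coding genes (left), and percent of all counts on the cytosolic 18S rRNA gene (right), per library (points) with group mean and SD (black). Both are highest in germ-free zinc replicate 1, at 8.10% and 10.03%, and the 3 germ-free Milli-Q libraries lie above the 3 SPF Milli-Q libraries in both.

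Within the mitochondrial mRNAs, mt-Nd5 set germ-free libraries apart. It made up 3.60 to 4.23% of the mitochondrial protein-coding counts in the 7 germ-free libraries and 4.94 to 7.16% in the 14 others, with no overlap. The means were 4.00% ± 0.0317 (SD, n = 3) in germ-free Milli-Q, 3.91% ± 0.300 (SD, n = 4) in germ-free zinc, 6.30% ± 1.04 (SD, n = 3) in SPF Milli-Q and 6.25% ± 0.368 (SD, n = 3) in SPF zinc. None of the other 6 measured protein-coding genes separated these 7 libraries from the 14. mt-Cytb, for example, ran from 27.8 to 32.7% in germ-free libraries and from 22.9 to 29.0% in the others.

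On Milli-Q water the shares of several genes differed between germ-free and SPF mice, with mt-Nd4 and mt-Co1 in opposite directions. mt-Nd4 made up 9.38, 12.02 and 10.7% of the mitochondrial protein-coding counts in germ-free Milli-Q against 6.87, 6.47 and 7.79% in SPF Milli-Q, and mt-Co1 made up 40.3, 35.3 and 36.1% against 41.9, 44.9 and 42.5%. In germ-free zinc, replicates 1, 2 and 3 had 6.03 to 7.19% on mt-Nd4, within or below the range of SPF zinc and SPF Milli-Q together, and replicate 4 had 10.1%. These are shares of 1 sum, so a higher share of one gene lowers the others. Both genes lie partly in the chromosome 1 copy.

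**Figure D5:**
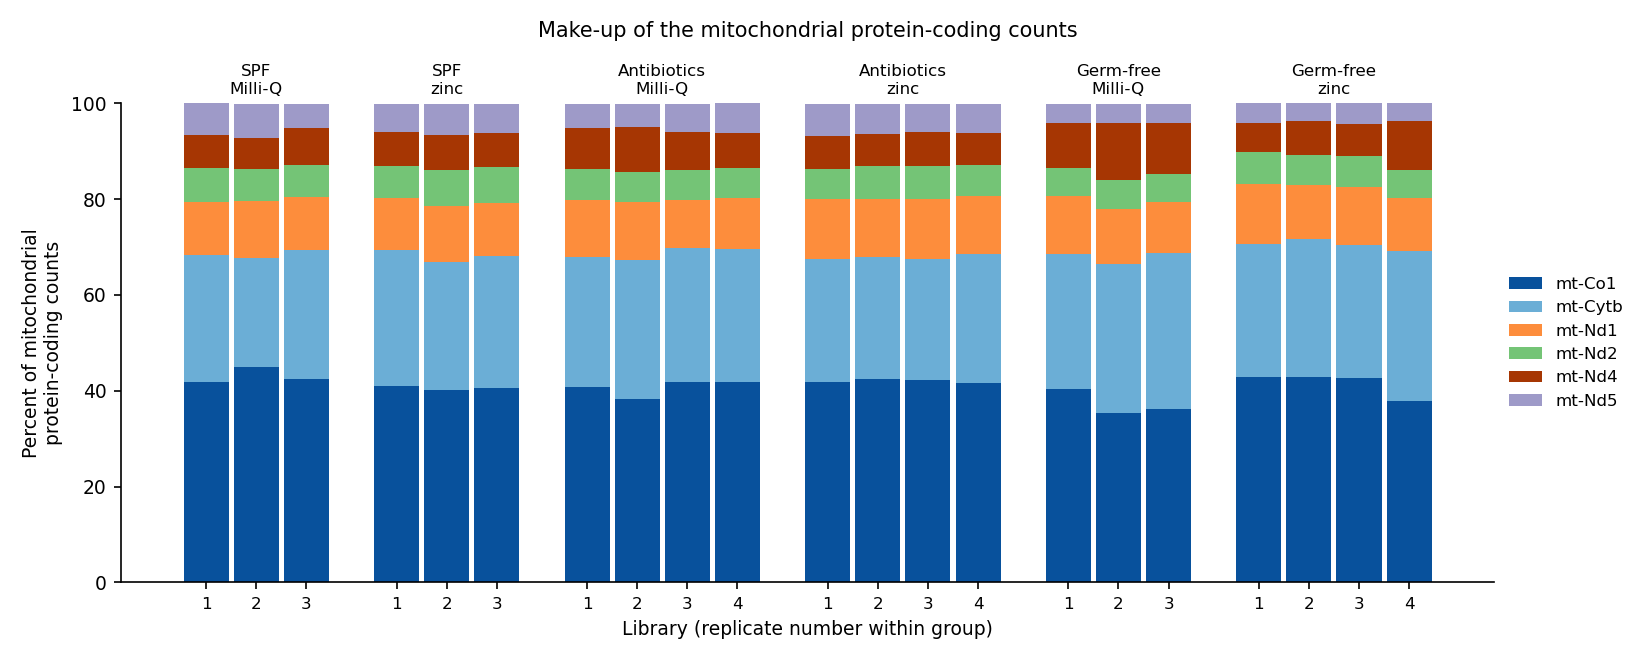
Share of each protein-coding gene in the mitochondrial protein-coding counts of each library (stacked bars, percent), with libraries by group and replicate number. mt-Nd5, the top segment, spans 3.60 to 4.23% in germ-free libraries and 4.94 to 7.16% in the others, and mt-Nd4 is widest in germ-free Milli-Q, at 9.38 to 12.02%.

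The light-strand mRNA mt-Nd6 and the tRNA genes were close to the limit of the counts. mt-Nd6 had 10 to 122 counts per library (median 59), and its share of mitochondrial protein-coding counts was 0.0338% ± 0.0062 in germ-free Milli-Q (SD, n = 3) and 0.0142% ± 0.0040 in germ-free zinc (SD, n = 4), with no overlap. It overlaps mt-Nd5 on the opposite strand by 14 bases, and the sources used here do not say whether counting used the strand. All tRNA genes together had 50 to 70 counts per library in SPF Milli-Q, 41 to 75 in SPF zinc, 51 to 70 in the antibiotics groups, 6 to 16 in germ-free Milli-Q and 8 to 26 in germ-free zinc. The tRNA counts of germ-free libraries, not scaled, were thus below those of SPF libraries on either water, without overlap. As a percent of all counts they did not overlap either. With TMM factors, mt-Tw did overlap on zinc water, at 0.328 to 2.01 CPM in germ-free against 1.63 to 2.68 CPM in SPF. Apart from mt-Tw and mt-Tt, the tRNA genes with any count were mt-Ti (51 in all libraries), mt-Tm (28), mt-Tp (19), mt-Tq (4) and mt-Ta (4).

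The nuclear genes that mitochondria depend on were read from 2 lists. Of 46 genes for mitochondrial transcription, RNA processing and DNA maintenance, all tested, 8 rose and 1 fell with zinc after antibiotics, 19.6% of the list against 21.7% of all genes. The largest rises were those of Tefm, the elongation factor of the mitochondrial polymerase (log2 fold change 0.72 ± 0.19, SE, edgeR adjusted p 0.0107), and Trnt1, which adds the CCA end to tRNAs (0.53 ± 0.14, SE, adjusted p 0.00967), and Fastk fell by 0.79 ± 0.18 (log2, SE, edgeR adjusted p 0.00522). With zinc in germ-free mice 4 rose and 1 fell, 10.9% of the list against 11.4% of all genes. Ppargc1a, a coactivator of mitochondrial gene programmes, was at 5.04 against 1.96 CPM (log2 fold change 1.37 ± 0.32, SE, edgeR adjusted p 0.0142), Tfb1m, a methyltransferase of the 12S rRNA, rose by 0.76 ± 0.25 (log2, SE, edgeR adjusted p 0.0486), and Rexo2, a mitochondrial oligoribonuclease, fell by 0.39 ± 0.11 (log2, SE, edgeR adjusted p 0.0302).

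In germ-free against SPF mice on Milli-Q water, 2 of the 46 rose and 5 fell, 15.2% of the list against 24.2% of all genes. Ptcd2 (log2 fold change 0.71 ± 0.16, SE, edgeR adjusted p 0.0024) and Rexo2 (0.51 ± 0.12, SE, adjusted p 0.00348) rose. Ppargc1a fell by 1.39 ± 0.33 (log2, SE, edgeR adjusted p 0.00385), and Gabpa, a subunit of a transcription factor of respiratory genes, fell by 0.79 ± 0.19 (log2, SE, edgeR adjusted p 0.00442). Between antibiotics and SPF on zinc water 7 rose and 0 fell, 15.2% of the list against 8.97% of all genes. The largest rises were those of Elac2, the enzyme that cuts the 3′ ends of tRNAs (0.68 ± 0.15, SE, edgeR adjusted p 0.00859), and Fastkd2 (0.63 ± 0.14, SE, adjusted p 0.00883). In the other 3 comparisons 0 of the 46 were called, with 0 at an unadjusted p under 0.05 for zinc in SPF mice, 3 for antibiotics against SPF on Milli-Q water and 9 for germ-free against SPF on zinc water. Among the interactions, 1 of the 46 was called, Rexo2, whose zinc effect was lower in germ-free than in antibiotics mice by a log2 difference of -0.79 ± 0.15 (SE, edgeR adjusted p 0.0291), a gene named after its values were seen.

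Of 78 nuclear genes for subunits of oxidative phosphorylation, 29 rose and 0 fell with zinc after antibiotics, 37.2% of the list against 21.7% of all genes in either direction and 10.2% called higher, with a median log2 fold change of 0.32. The largest rises were those of Atp5pb of the ATP synthase (0.68 ± 0.15, SE, edgeR adjusted p 0.00409) and Ndufv2 of complex I (0.66 ± 0.16, SE, adjusted p 0.00607). With zinc in germ-free mice 2 rose and 0 fell, 2.56% of the list against 11.4% of all genes, and the median of the 78 was 0.02, while that of the 11 mitochondrial members was 0.94. In germ-free against SPF mice on Milli-Q water 11 rose and 2 fell, 16.7% of the list against 24.2% of all genes, with Atp5f1d (0.96 ± 0.19, SE, edgeR adjusted p 0.00121) and Ndufs7 (0.78 ± 0.18, SE, adjusted p 0.00353) the largest rises, and Sdhd and Ndufs1 the 2 that fell, by 0.64 ± 0.22 and 0.48 ± 0.14 (log2, SE, edgeR adjusted p 0.0382 and 0.0148). As a percent of all counts, the scale used above for the mitochondrial share, the 78 genes together were at 0.953 to 1.15% in SPF Milli-Q and at 0.507 to 0.611% in germ-free Milli-Q, with no overlap, so that their direction differed between the scales. On zinc water 4 rose and 0 fell between germ-free and SPF mice, 5.13% of the list against 5.85% of all genes. Between antibiotics and SPF mice on zinc water 8 rose and 0 fell, 10.3% of the list against 8.97% of all genes, led by Ndufa12 (0.55 ± 0.15, SE, edgeR adjusted p 0.0261) and Uqcrc2 (0.54 ± 0.17, SE, adjusted p 0.0474). Zinc in SPF mice and antibiotics against SPF on Milli-Q water called 0 of the 78 in edgeR, with 0 at an unadjusted p under 0.05 in both. The 3 interactions also called 0 of the 78, so the zinc effect on these genes was not shown to differ between contexts. Of all genes, 0%, 0% and 0.207% were called for antibiotics minus SPF, germ-free minus SPF and germ-free minus antibiotics. At an unadjusted p under 0.05 in edgeR were 34, 5 and 17 of the 78, in the same order.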

How the data were processed

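Paneth cell RNA from 21 samples in 6 groups was sequenced after poly(A) selection (TruSeq stranded mRNA). The authors deposited raw counts of reads per gene, 1 column per library, not normalised. The submitters' processing notes name STAR 2.7.0a, FastQC 0.12.0, DESeq2 and the genome build mm39, while the tool that counted reads, strand use and the handling of reads with several positions were not given in the sources used here. Whether the handling of such reads changed the counts of genes that have a near-identical copy was not tested.

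Gene IDs were matched to GENCODE M39 on GRCm39 (54749 of 55414 matched, and the other 665 held 0.0164% of counts). Groups came from the sample labels. Shares are percents of all counts of a library, with exact Clopper-Pearson 95% intervals, which cover counting error only. Exact matches of the mitochondrial genome to the nuclear chromosomes were searched from seeds of 32 bases, and stretches of 50, 75 and 100 bases were counted as shared when found on any nuclear chromosome, either strand.

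Tests used edgeR 4.0.16 (R 4.3.3, limma 3.58.1) on the deposited counts, with TMM factors, the default expression filter by group (13070 genes kept), 1 fit over all 21 libraries with 1 coefficient for each of 6 groups, and quasi-likelihood tests with Benjamini-Hochberg adjustment over all genes tested at 0.05. In all, 7 comparisons of a pair of groups and 3 interactions were tested. CPM values are counts scaled with TMM factors, except in levels per kilobase and in shares, which use library totals. The script was tested on simulated data. Alternatives were other scaling factors, DESeq2 1.42.0, limma-voom, other filters, a replicate block, fits of only the groups compared, leaving out each library in turn, and shares without the Defa genes.

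Members with the 3 largest rises and the 3 largest falls among those called, and mt-Co1, mt-Rnr2 and mt-Nd6 in every comparison, were named. From the nuclear lists, up to 2 genes in each direction were named where at least 5 were called. Members, lists and this rule were chosen with earlier results of these data known. The 18S rRNA gene is named Rn18s-rs5 in this annotation and was matched under that name.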

Additional observations from a re-analysis of the deposited data

Results flagged for a closer look

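In groups of 4 libraries, a library was singled out when its gap to the nearest other exceeded Dixon's 95% limit for the range of the group, which chance alone does in about 1 of 20 groups tested, and 4 of 51 such tests did so. In antibiotics zinc, replicate 1 had 1.881428% of its counts on the 37 mitochondrial genes, with the nearest library at 3.444513%. The same library had 0.475295% on mt-Cytb, with the nearest at 0.89468%. In antibiotics Milli-Q, replicate 1 had 0.065908% on the 2 rRNA genes, with the nearest at 0.038748%, and 0.044786% on mt-Rnr2 alone, with the nearest at 0.02618%. These 4 results come from 2 libraries. No test of a cause was run.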

How the results depend on the processing

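Scaling changed how many members were called. By library totals alone, zinc after antibiotics called 2 members, germ-free against SPF 8 on Milli-Q water and 4 on zinc water, where the medians over all genes were -0.15, -0.99 and -0.61 (log2). Without a filter on low counts, 1 member (mt-Rnr1, higher) was called for zinc in SPF mice, 4 for germ-free against SPF on Milli-Q water and 2 on zinc water. DESeq2 called 2 for germ-free against SPF on zinc water, limma-voom called 1 on Milli-Q water, and a fit of only the groups compared called 0 for zinc in germ-free mice. Leaving out each library in turn gave 0 to 8 calls for zinc after antibiotics, 0 to 7 for zinc in germ-free mice, 0 to 3 for germ-free against SPF on Milli-Q water and 0 to 3 on zinc water, and 0 in the other comparisons and the interactions. The cause was not tested.

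Samples with the same replicate number did not deviate together in every pair (correlations from -0.17 to 0.23). So few pairs cannot show whether samples were paired. In germ-free Milli-Q, some replicate numbers of the labels also differ from the numbers of the deposited count columns. A fit with a replicate block called 1 member for germ-free against SPF on Milli-Q water (mt-Nd5), 6 for zinc after antibiotics and 5 for zinc in germ-free mice, and gave log2 fold changes of 0.0119 for mt-Co1 and 0.0668 for mt-Nd6 for antibiotics against SPF on Milli-Q water, where the sign turned.

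Other signs that turned belonged to members that were not called. With library totals only, mt-Nd6 was at -0.0403 for zinc in SPF mice, mt-Co1 at 0.0341 and mt-Nd6 at 0.0218 for antibiotics against SPF on Milli-Q water, mt-Rnr2 at -0.49 and mt-Nd6 at -0.85 for germ-free against SPF on Milli-Q water, and mt-Co1 at -0.35 on zinc water. Leaving out a library gave -0.0987 to 0.0203 for mt-Co1 and -0.22 to 0.14 for mt-Nd6 for antibiotics against SPF on Milli-Q water, -0.39 to 0.37 for mt-Nd6 for germ-free against SPF on Milli-Q water and -0.59 to 0.20 for mt-Nd6 for zinc in germ-free mice. mt-Nd6 had 10 to 122 counts per library.

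Shares of counts without the Defa genes were, in the order SPF Milli-Q, SPF zinc, antibiotics Milli-Q, antibiotics zinc, germ-free Milli-Q and germ-free zinc, 2.85, 3.53, 3.05, 4.401, 1.49 and 3.00% for the 37 genes, 2.78, 3.43, 2.99, 4.27, 1.43 and 2.87% for the protein-coding genes and 0.000582, 0.00077, 0.000585, 0.000646, 0.000164 and 0.000245% for the tRNA genes. For the rRNA genes they were 0.0653% in SPF Milli-Q, 0.0968% in SPF zinc, 0.0624% in antibiotics Milli-Q, 0.0646% in germ-free Milli-Q and 0.133% in germ-free zinc, and the value for antibiotics zinc moved by less than 1 SD. With 1 library left out, the share on the 37 genes ranged from 1.93 to 2.06%, 2.14 to 2.38%, 2.00 to 2.28%, 3.00 to 3.63%, 0.657 to 0.961% and 1.44 to 1.97% in the same order.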
